A study of Homo sapiens with 10 samples.

Results

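The long arm of chromosome 18 (18q) held 326 of the 38106 m6A peaks deposited for 5 human colon cancer cell lines. A peak was counted on 18q when its summit lay on chromosome 18 at position 18500000 or higher on the genome build hg19, whatever its height. By that rule COLO320DM had 88 peaks on 18q, HCT116 79, HT29 79, COLO205 72 and HCT15 8. The short arm (18p) had 148 peaks in all and served as the reference on the same chromosome. The study enriched fragmented total RNA with an antibody against N6-methyladenosine (m6A) and sequenced it (MeRIP-seq), with 1 immunoprecipitated (IP) library and 1 input library labelled for each line. HCT116, HT29 and HCT15 are labelled colorectum, COLO320DM and COLO205 colon, and by the labels all 5 lines were grown in the same medium with serum, with no treatment named. Each line was represented by 1 library, so differences between lists compare these libraries and no test between lines was possible.

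m6A is the most common internal modification of messenger RNA. It is written by a complex around METTL3 and METTL14, mostly in long internal exons and near stop codons, and is read by proteins that steer splicing, translation and decay. Chromosome 18 is poor in genes. Its long arm carries SMAD4 and SMAD2, which transmit TGF-beta signals, SMAD7, which restrains them, the netrin receptor gene DCC and the apoptosis inhibitor gene BCL2. Loss of 18q is frequent in colorectal cancers with chromosomal instability. HCT116 and HCT15 are known as near-diploid lines with deficient mismatch repair, while HT29, COLO320DM and COLO205 are aneuploid. The files measure enriched RNA and not copies of DNA, so whether any of these lines lacks an 18q copy was not tested. No hg19 gene annotation or genome was used here. Peaks are therefore named by position, counting from 1, no gene is assigned to any of them, no sequence is shown, and the labelled tissue could not be checked against marker genes.

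Each value below rests on few reads. The IP reads over each summit and the local background were recovered from the deposited fold and p-value of each peak. In mega-reads (M), the IP libraries held 1.38 to 5.02 M and the inputs 1.61 to 5.41 M, as the caller kept them. HCT15 stands apart: its IP was the deepest, its input the shallowest, and its list the shortest, with 917 peaks against 8832 to 9998. The 8 HCT15 peaks on 18q give wide intervals, so the lines are listed one by one and the 4 long lists can be read without it. Intervals on shares are exact Clopper-Pearson 95% intervals. They cover counting error and not the spread between cultures. They take each peak as an independent draw, although peaks of 1 list often lay close together, so they can be too narrow.

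18q was thin in m6A peaks in each of the 5 lists. Its share of the peaks on chromosomes 1 to 22, X and Y was 0.858% in HCT116 (95% interval 0.680% to 1.07%), 0.894% in HT29 (0.709% to 1.11%) and 0.884% in HCT15 (0.382% to 1.73%). The share was 1.02% in COLO320DM (0.818% to 1.25%) and 0.732% in COLO205 (0.573% to 0.921%). The arm makes up 1.92% of the chromosome spans, above the upper end of each of these intervals. The intervals of the 5 lists overlapped one another. The order of the lines also changed with the peaks used: among the 905 strongest peaks of each list, HT29 had the highest share, 1.33%, and COLO205 the lowest, 0.552%.

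Per megabase, 18q carried 1.33 peaks in HCT116, 1.33 in HT29, 1.48 in COLO320DM, 1.21 in COLO205 and 0.135 in HCT15. Over all chromosomes the densities were 2.98, 2.86, 2.79, 3.18 and 0.293 peaks per Mb in the same order. With chromosome 18 divided into its arms, 25 chromosomes and arms could be ranked. 18q was the second lowest of these in HCT116, HT29, COLO320DM and COLO205, and the fifth lowest in HCT15. The unit below it was chromosome 13 in HCT116, chromosome X in HT29 and COLO205, and chromosome Y in COLO320DM. These densities count assembly gaps as span. The 115 Mb taken for chromosome 13 include its unassembled short arm, so its density is understated. Ranks without gaps were not computed, and 18q could be the lowest in some lists.

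18p was denser than 18q in the 4 long lists. Measured to its last peak at 15.2 Mb, 18p had 3.09 peaks per Mb in COLO320DM, 2.96 in HT29, 1.91 in HCT116 and 1.78 in COLO205. In HCT15 it had 0 of 905 peaks, with an upper limit of 0.407%. Of the peaks on chromosome 18, 18q held 73.1% in HCT116 (63.8% to 81.2%), 63.7% in HT29 (54.6% to 72.2%), 65.2% in COLO320DM (56.5% to 73.2%) and 72.7% in COLO205 (62.9% to 81.2%). The arm is 79.6% of the chromosome when the gap around the centromere is left out, which lies above the intervals of HT29 and COLO320DM and inside those of HCT116 and COLO205. Chromosome 13, another gene-poor chromosome whose assembled sequence is its long arm, differed far more between lists. It held 3.68% of COLO205 peaks (3.32% to 4.07%), 2.57% in COLO320DM (2.25% to 2.93%), 2.18% in HT29 (1.89% to 2.51%) and 1.44% in HCT116 (1.21% to 1.71%). COLO205, with the lowest 18q share, had the highest share on chromosome 13.

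**Figure D1:**
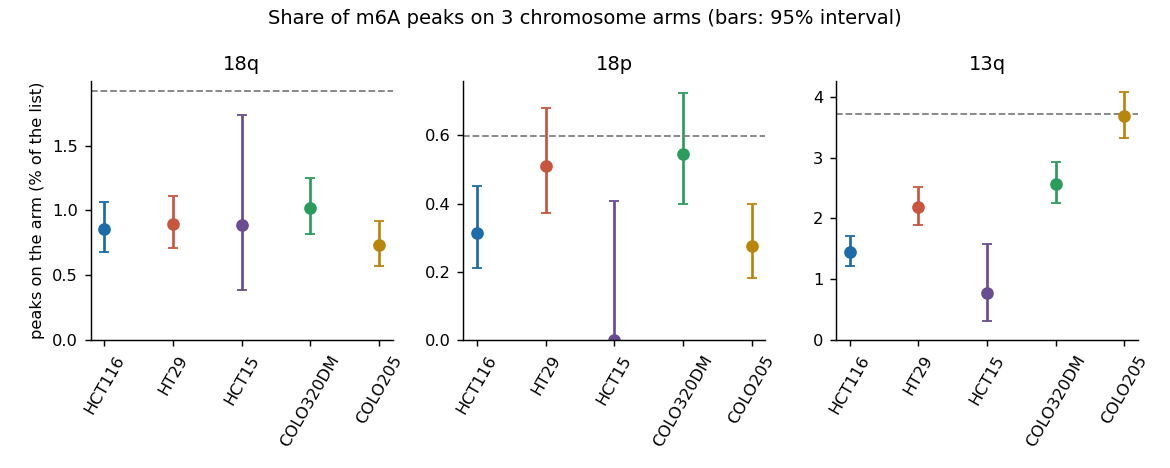
Share of each list's peaks on 18q, 18p and 13q (vertical axes in percent of the peaks on chromosomes 1 to 22, X and Y, each from 0). Points are single libraries, bars 95% Clopper-Pearson intervals, and the dashed line is the share of the chromosome spans taken for the arm. For 13q that span is chromosome 13 with its unassembled short arm. For 18p it runs to the arm limit, with the gap around the centromere. The lines of 13q and 18p therefore overstate these arms. On 18q the 5 points lie between 0.732% and 1.02%, below the line at 1.92%.

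The rule's limit divided no crowded stretch. The 3 summits nearest to it on 18q lay within 0.0881 Mb of it, with 1 peak each in HT29, HCT116 and COLO320DM, folds of 6.61, 4.82 and 4.81, and 6, 4 and 4 IP reads. On the 18p side the nearest summits were 3.31 Mb away, in COLO205, with folds of 4.45 to 5.54 and 4 or 5 reads. One further COLO205 peak, on an unplaced chromosome 18 contig, was left out of both arms.

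Peaks on 18q were of ordinary strength within their own lists. The authors' fold is the enrichment of a summit over its local background, and its median on 18q was 5.67 in HT29 and 5.54 in COLO205, then 4.97 in HCT116 and 4.81 in COLO320DM. The medians of the whole lists were 5.67, 5.70, 5.11 and 5.23, inside the 95% interval of the 18q median in these 4 lists. On 18p the median was 5.44 in HT29 (4.79 to 6.59) and 6.46 in COLO205 (5.34 to 9.02). It was 6.75 in HCT116 (4.93 to 8.78) and 5.47 in COLO320DM (4.57 to 6.68). Each 18p interval overlapped that of 18q. The 8 HCT15 peaks had a median fold of 7.0 (4.65 to 10.03), against 5.72 in that list. The highest fold on the arm was 17.4 in COLO205, 16.3 in HT29, 14.9 in HCT116, 11.9 in COLO320DM and 10.03 in HCT15. Each of these was well under the highest fold of its list, which ran from 18.3 in HCT15 to 40.7 in HT29.

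The reads under 18q peaks were fewer than in the whole list in COLO320DM, with a median of 8 (5 to 11) against 12. In the other long lists the interval of the median included that of the list. The median summit had 8 IP reads (5 to 11) in HCT116 against 11, 7 (6 to 9) in HT29 against 8, and 7 (6 to 9) in COLO205 against 9. In HCT15 the median was 24 unscaled reads against 18, and the caller counted each of these reads as 0.322. Peaks with fewer than 5 reads made up 27 of 79 in HCT116, where 25.1% of the whole list was that weak. They made up 34 of 88 in COLO320DM, beside a background of 20.4%, 17 of 79 in HT29 beside 17.1%, and 13 of 72 in COLO205 beside 13.8%. As a share of all reads under summits, 18q held 0.848% in HCT15, 0.782% in COLO320DM, 0.694% in HT29, 0.631% in HCT116 and 0.503% in COLO205. In each of the 5 lists that was less than its share of peaks.

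The widths of 18q peaks lay near those of their lists. The median was 136 nt in HT29 and 108 to 111.5 nt in the other 4 lists, where whole lists had 129 nt in HT29 and 114 to 126 nt in the others. Peaks of 500 nt or more numbered 2 in HCT116, where the whole list had 1.82%, 1 in COLO320DM, where it had 1.44%, and 0 in the other lists, where it had 4.04% in HT29, 2.43% in HCT15 and 2.43% in COLO205. The widest, 776 nt, was in HCT116 from 77474512 to 77475287. Peaks on the arm also had fewer close neighbours. A neighbour of the same list within 10 kb was found for 19.0% of HCT116 peaks on 18q (11.0% to 29.4%), against 49.0% of the list. The share was 41.8% in HT29 against 54.2%, 38.6% in COLO320DM against 48.8%, and 34.7% in COLO205 against 52.6%. The HT29 interval, 30.8% to 53.4%, and the COLO205 interval, 23.9% to 46.9%, also ended below the share of their lists, and that of COLO320DM, 28.4% to 49.6%, did not.

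The local input under 18q peaks was lower than in the whole list in HCT116 and COLO320DM. A peak is called input-covered here when its background, taken to come from the input library, was at least that of 1 input fragment, and input-poor otherwise. A background under 1 fragment is an average over a wider window, up to 10 kb, or the genome mean. It is not input at the summit itself. The cut of 1 fragment differed between lists in its height over the mean. The cut was 6.65 times the genome-mean background in COLO205, 11.6 in HT29, 16.1 in HCT116, 16.2 in COLO320DM and 22.6 in HCT15. The shares covered are therefore set against the same list and not against other lines. Input covered 34 of 79 peaks on 18q in HCT116, 43.0% (31.9% to 54.7%), where 58% of the list was covered. In COLO320DM it covered 42 of 88, 47.7% (37.0% to 58.7%), against 62.2%. Both intervals ended below the share of the list. In HT29 it covered 24 of 79, 30.4% (20.5% to 41.8%), against 38.7%, in COLO205 32 of 72, 44.4% (32.7% to 56.6%), against 51.4%, and in HCT15 1 of 8, against 20.1%. These 3 intervals included the share of the list.

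At the other end, the background of many 18q peaks stood at the genome mean, the lowest value the caller allows. That held for 31 of 79 peaks in HT29, 39.2% (28.4% to 50.9%), where the background over the list was 20%. It held for 20 of 88 in COLO320DM, 22.7% (14.5% to 32.9%), against 8.8%, and for 16 of 72 in COLO205, 22.2% (13.3% to 33.6%), against 12.2%. In HCT116 it held for 16 of 79, 20.3% (12.04% to 30.8%), against 12.8%, and in HCT15 for 3 of 8, against 34.5%. The median background over the genome mean was 7.11 in COLO320DM, 6.02 in HCT116, 3.74 in COLO205 and 1.74 in HT29. Over the whole lists it was 23.7, 16.9, 6.65 and 2.79. In HCT15 it was 2.51 on the arm against 1.67. With a −log10 q of at least 5, the 18q medians rose to 21.3 in COLO320DM and 16.1 in HCT116, and the input-covered shares to 63.6% and 56.1%. The whole lists were not recomputed at that threshold. On 18p, with all peaks, the median was 30.1 in HCT116 (2.41 to 48.2) and 16.2 in COLO320DM (5.93 to 19.0), higher than on 18q. These intervals overlapped those of the 18q medians, 2.41 to 16.1 and 1.78 to 21.3. In HT29 the 18p median was 2.61 and in COLO205 1.75. Fewer cells holding a transcript and less of it per cell cannot be told apart in these lists.

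**Figure D2:**
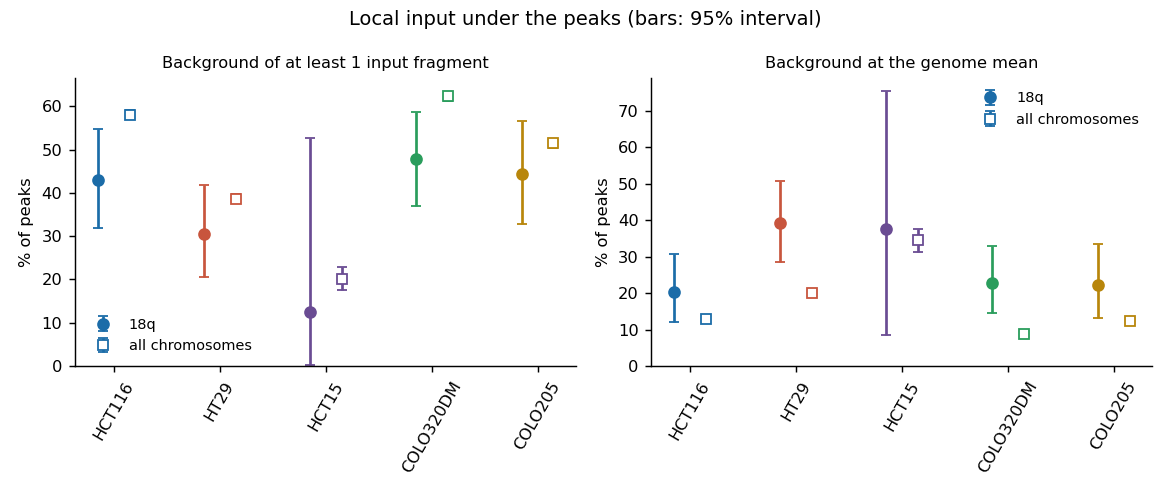
Percent of peaks whose background was at least 1 input fragment (left) and whose background stood at the genome mean (right), for 18q (filled circles) and all chromosomes (open squares). Points are single libraries and bars 95% Clopper-Pearson intervals. In each line the 18q point lies lower on the left and higher on the right, with the widest bars for the 8 HCT15 peaks.

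Along the arm, peaks were gathered in a few stretches and absent from long ones. Of the 60 windows of 1 Mb from the arm limit to the end, 19 held no peak of any list, 11 held peaks of 1 list and 4 held peaks of all 5. The longest empty run covered 5 windows, from 61000001 to 66000000. HCT116 had peaks in 30 windows, COLO320DM in 28, COLO205 in 27, HT29 in 24 and HCT15 in 5. The 3 fullest windows took 43.0% of the 18q peaks in HT29, 33.3% of those in COLO205, 31.6% of those in HCT116 and 25% of those in COLO320DM.

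The 4 windows with peaks in all 5 lists began at 44000001, 60000001, 74000001 and 77000001. The window from 44000001 was sparse, with 4 peaks in HT29, 3 each in HCT116 and COLO205, and 2 each in HCT15 and COLO320DM. Of these 14 peaks, 3 were input-covered. The window from 60000001 had 7 peaks in HCT116, 7 in COLO320DM, 4 in HT29, 1 in HCT15 and 1 in COLO205. In that window 1 of the 7 HCT116 peaks overlapped a peak of another list, where 61.6% of the whole list did, and 2 of the 7 COLO320DM peaks, where 52.9% did. In HT29 it was 1 of 4, beside 63.7%, and the single peaks of HCT15 and COLO205 each overlapped another list, beside 94.4% and 65.1%. The window from 74000001 had 10 peaks in HT29, 8 in COLO205, 6 in HCT116, 5 in COLO320DM and 2 in HCT15, and there 7, 7, 5, 4 and 1 of them overlapped another list, beside the same shares of the whole lists. The 5 COLO320DM peaks of that window lay within 64.2 kb and were input-covered, with 16 to 29 reads, whereas the 10 HT29 peaks were spread over 909 kb with 3 to 17 reads. The last window, from 77000001, had 12 peaks in HCT116, 10 in HT29, 9 in COLO205, 8 in COLO320DM and 1 in HCT15. It held the strongest 18q peak of HCT116, described below.

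**Figure D3:**
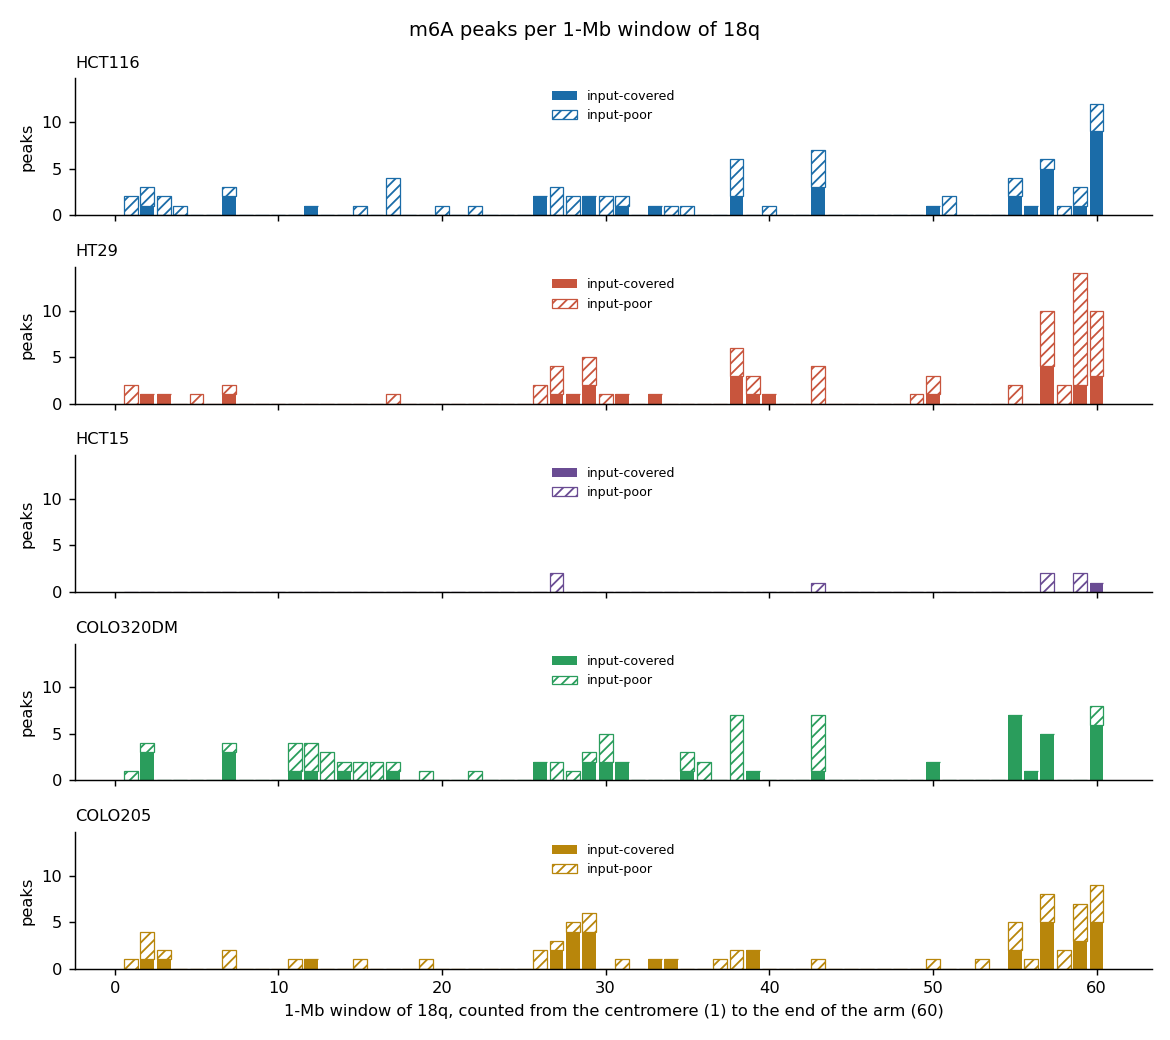
Number of m6A peaks in each 1-Mb window of 18q, 1 panel per line, counted from the centromere (window 1, which starts at the arm limit) to the end of the arm (window 60). Filled bars are input-covered peaks and hatched bars input-poor ones. HT29 reaches 14 peaks in window 59, where COLO320DM has 0.

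The lines differed most at the 2 ends of the arm. The 20 windows nearest the end of the chromosome held 58.2% of the 18q peaks in HT29 (46.6% to 69.2%), 48.6% in COLO205 (36.6% to 60.7%) and 46.8% in HCT116 (35.5% to 58.4%). They held 34.1% in COLO320DM (24.3% to 45.0%), whose interval did not reach that of HT29, and 6 of the 8 peaks in HCT15. The 20 windows nearest the centromere reversed this order. The shares of a list add up to its whole and the middle windows differed little, so the reversal is not a separate difference. They held 32.95% of COLO320DM peaks (23.3% to 43.8%), 22.8% of HCT116 peaks, 18.1% of COLO205 peaks, 10.1% of HT29 peaks (4.47% to 19.0%) and 0 of the 8 HCT15 peaks. The middle 20 windows differed little among the long lists, from 30.4% in HCT116 to 33.3% in COLO205.

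The 2 classes of peaks gave different orders of the lines. The cut between the classes is a different background in each list, so a class does not hold like peaks across lines. Of the 55 input-poor HT29 peaks on 18q, 36 (65.5%) lay in the 20 windows nearest the end, as did 20 of 40 in COLO205, 15 of 45 in HCT116 and 5 of 7 in HCT15. In COLO320DM 8 of 46 did (17.4%). Input-covered peaks showed another order, with 22 of 34 in HCT116 (64.7%), 22 of 42 in COLO320DM (52.4%), 15 of 32 in COLO205 (46.9%), 10 of 24 in HT29 (41.7%) and 1 of 1 in HCT15. The difference between the classes itself was not tested.

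One window near the end, named as the fullest of HT29, differed in count between the lists. From 76000001 to 77000000, HT29 had 14 peaks, more than in any other window of its arm. COLO205 had 7, HCT116 had 3, HCT15 had 2 and COLO320DM had 0. The HT29 peaks had folds of 3.63 to 16.3 and 3 to 17 reads, and 2 were input-covered. With a −log10 q of at least 5, the fullest HT29 window held 7 peaks. Of the 14, 5 overlapped a peak of another list, beside 63.7% of the whole HT29 list. In COLO205 4 of the 7 did, beside 65.1%, in HCT116 2 of the 3, beside 61.6%, and in HCT15 both, beside 94.4%. The strongest 18q peak of HT29 lay here, from 76776645 to 76776786, with a fold of 16.3 and 17 reads over 0.150 input fragments. HCT116 had a peak at that place, and the other 3 lists did not.

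Towards the centromere, COLO320DM had more peaks than the other lists in 1 stretch. In the 6 windows from 28000001 to 34000000, picked after their counts were seen, it had 17 peaks or 19.3% of its 18q peaks (11.7% to 29.1%). HCT116 had 2 there, COLO205 had 3, and HT29 and HCT15 had 0. Most of the COLO320DM peaks were weak: the median was 3 reads and a fold of 3.85, and 3 of the 17 were input-covered. The stretch also held the strongest 18q peak of COLO320DM by −log10 p, at 28.1, from 29078118 to 29078201. That peak had 41 reads over 6 input fragments and a fold of 8.61, and HCT116 was the one other list with a peak there. Another, from 28859781 to 28860107, had 32 reads, a fold of 9.20 and no partner in any list. With a −log10 q of at least 5, 4 peaks of the stretch remained, or 9.09% of the COLO320DM peaks on 18q.

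Which 18q peaks the lines had in common was asked with overlaps of at least 1 nt. Of HCT116 peaks on 18q, 44 of 79 overlapped a peak of any other list, beside 61.6% over the whole list. For HT29 it was 43 of 79, 54.4% (42.8% to 65.7%), beside 63.7%, for COLO320DM 39 of 88, 44.3% (33.7% to 55.3%), beside 52.9%, and for COLO205 46 of 72, 63.9% (51.7% to 74.9%), beside 65.1%. The interval of HCT116, 44.1% to 66.9%, and the 3 just given included the share of the list. In HCT15 7 of 8 peaks overlapped another list, beside 94.4%.

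Pairs of lists differed on 18q. HT29 and COLO205 met most often, with 34 of 79 HT29 peaks in COLO205, or 43.0% (31.9% to 54.7%) beside 52.2% over the whole list, and 34 of 72 COLO205 peaks in HT29, or 47.2% beside 47.8%. HCT116 and COLO320DM came next, with 33 of 79 HCT116 peaks, or 41.8% beside 38.9%, and 34 of 88 COLO320DM peaks, or 38.6% beside 42%. HCT116 and HT29 met less, in 20 of 79 HCT116 peaks, or 25.3% (16.2% to 36.4%) beside 36.2%, and in 23 of 79 HT29 peaks, or 29.1% beside 37.3%. HCT116 and COLO205 met in 23 of 79 HCT116 peaks, or 29.1% (19.4% to 40.4%), below the 41.3% over the whole list. COLO320DM peaks met COLO205 in 18 of 88 cases, or 20.5% (12.6% to 30.4%), below the 33.9% over the list, and HT29 in 17 of 88, or 19.3% beside 27.1%. In 11 of the 12 directions among the long lists the 18q share was lower than that of the whole list, and in 2 of these the 95% interval ended below it. The pairs share lists and are not independent.

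**Figure D4:**
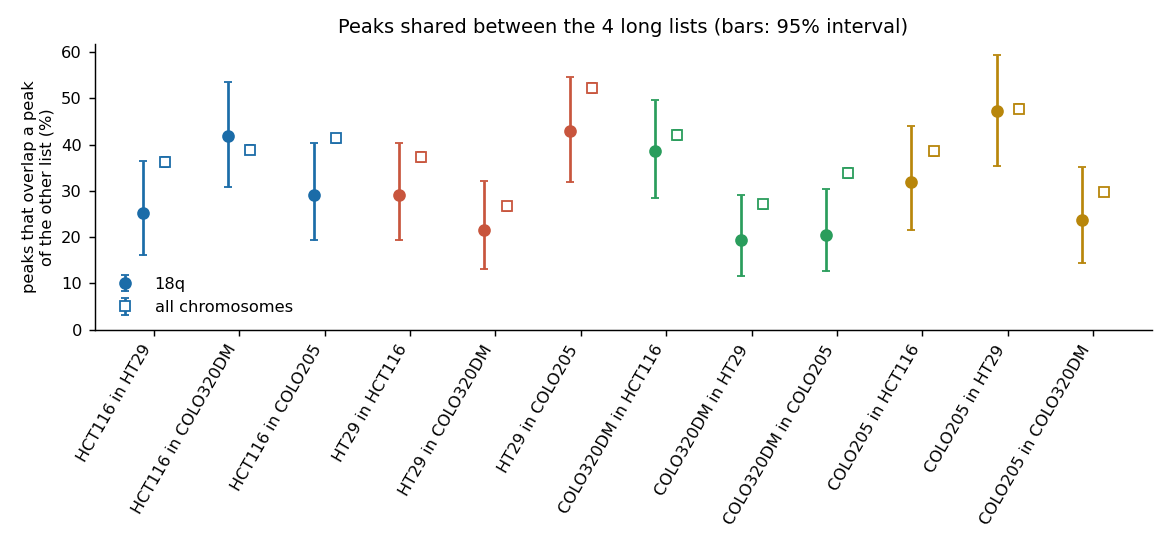
Percent of the peaks of 1 list that overlap a peak of a second list, for the 12 directions among HCT116, HT29, COLO320DM and COLO205, on 18q (filled circles) and over all chromosomes (open squares). Bars are 95% Clopper-Pearson intervals. The highest 18q point is COLO205 in HT29 at 47.2% and the lowest COLO320DM in HT29 at 19.3%.

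HCT15 had too few peaks on the arm to place it among the lines. Of its 8 peaks, 7 overlapped HT29 and 7 COLO205, beside 85.3% and 78.6% over the list. None of the 8 overlapped an HCT116 peak, while 42.7% of the HCT15 list did, and the upper limit for 0 of 8 is 36.9%. COLO320DM held 2 of the 8 (3.19% to 65.1%), beside 6.19%. Seen from the long lists, HCT15 held 7 of 79 HT29 peaks on 18q beside 8.06%, 7 of 72 COLO205 peaks beside 7.08%, 2 of 88 COLO320DM peaks beside 0.648% and 0 of 79 HCT116 peaks beside 4.21%, with an upper limit of 4.56%. Those 2 lay from 44126344 to 44126529 and from 60885849 to 60885976, with 32 and 25 unscaled reads and folds of 9.83 and 8.66. The strongest HCT15 peak by fold, 10.03, lay from 76775148 to 76775239, where HT29 and COLO205 also had a peak. A pair of HCT15 peaks fell in the window from 74000001, from 74964900 to 74964990 with a fold of 7.82 and from 74970548 to 74970629 with a fold of 6.19. The second of these had no partner in the other lists.

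Sharing followed input on 18q as it did over the whole lists. In HCT116, 26 of 34 input-covered peaks (76.5%) and 18 of 45 input-poor ones (40.0%) overlapped another list. In HT29 it was 20 of 24 (83.3%) and 23 of 55 (41.8%), in COLO320DM 27 of 42 (64.3%) and 12 of 46 (26.1%), and in COLO205 23 of 32 (71.9%) and 23 of 40 (57.5%). Within a class, 18q lay near the lists as a whole: over all chromosomes the input-covered shares were 71.6%, 87.0%, 68.5% and 73.9%, and the input-poor shares 47.8%, 49.05%, 27.05% and 55.8%, in the same order of lines. Input-covered peaks were also wider on 18q, with a median of 166 nt in HCT116 where input-poor ones had 76 nt. In COLO320DM the medians were 149.5 and 75.5 nt, in COLO205 118.5 and 91.5 nt, and in HT29 the reverse, 124.5 and 139 nt. Input-covered peaks had more IP reads too. The medians were 16.5 and 4 in HCT116, 18 and 4 in COLO320DM, 10.5 and 5 in COLO205, and 12 and 6 in HT29. The parts of width and of reads in the overlaps were not tested.

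Merging overlapping peaks gave 210 regions on 18q. Of these, 63 were in 2 or more lists, 30.0% (23.9% to 36.7%), beside 36% of all merged regions. Regions in 3 or more lists numbered 34, beside 18.1%, and regions in 4 numbered 9, beside 8.37%. No region was in all 5 lists, which 0.13% of all regions were. The 147 regions of 1 list comprised 49 of COLO320DM, 36 of HT29, 35 of HCT116, 26 of COLO205 and 1 of HCT15. Among all 22315 merged regions the counts were 4072, 3205, 3533, 3429 and 51 in the same order. HCT116 with COLO320DM alone shared 12 of the 210 regions on 18q, beside 1049 of all 22315. HT29 with COLO205 alone shared 11 on 18q, beside 1325 of all. Whether 18q differed from all chromosomes in these combinations of lists was not tested. On 18p, 10 of 90 regions were in 4 lists (11.1%, interval 5.46% to 19.5%), against 4.29% on 18q (1.98% to 7.98%), and these intervals overlapped. The 18q interval ended below the 8.37% of all merged regions, and that of 18p included it.

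The 9 regions in 4 lists were spread from 24.1 to 77.8 Mb. Of these, 6 were in HCT116, HT29, COLO320DM and COLO205 and 3 included HCT15. The region with the most evenly high folds was near the end of the arm, from 77805885 to 77806189. It had 41 IP reads in HCT116, 32 in COLO320DM, 29 in HT29 and 17 in COLO205, and was input-covered in these 4 lines. Its folds were 15.2 in HT29, 14.7 in HCT116, 9.20 in COLO320DM and 8.55 in COLO205. Per M IP reads the order was different, with 29.7 in HCT116, 21.7 in COLO320DM, 13.6 in HT29 and 5.69 in COLO205. It was the peak with the highest −log10 p on 18q in HCT116, at 40.7, and its summits lay within 18 nt of one another.

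A region from 48703501 to 48703625 placed its summits closer still, within 11 nt. Its IP reads were 28 in HCT116, 27 in COLO320DM, 20 in HT29 and 17 in COLO205, and its folds 10.2, 10.6, 6.87 and 12.7 in that order. COLO205 had the highest fold with the fewest reads, over 0.750 input fragments, while the other 3 lines had 2.55 to 3 fragments. The region from 24128116 to 24128470 was high in HCT116, with a fold of 14.9 and 31 reads, and in COLO320DM, with 11.9 and 21 reads. It was lower in COLO205, with 9.30 and 11 reads, and in HT29, with 5.89 and 17 reads. It held the highest fold on 18q in both HCT116 and COLO320DM. The region from 67992833 to 67993375 held the highest fold of COLO205, 17.4, from 20 reads over 0.375 input fragments. In the same region HT29 had a fold of 9.94, HCT116 7.92 and COLO320DM 6.54, but with summits up to 348 nt from that of COLO205, at 67993237. HT29 and COLO320DM each had a second peak in it, with summits at 67993236 and 67993239 and folds of 5.34 and 6.44. The folds of this region therefore need not compare 1 site.

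The remaining regions rested on fewer reads in at least 1 line. From 55145590 to 55145892 the folds ran from 11.5 in HT29, with 20 reads, through 10.2 in HCT116 and 9.34 in COLO320DM to 5.54 in COLO205, with 5 reads. From 60885835 to 60885992 the region was input-poor in each of its 4 lists, with folds of 13.2 in HT29, 11.1 in COLO205, 8.66 in HCT15 and 7.64 in COLO320DM. HCT116 had no peak there, although it had 7 others in the same window. From 77474512 to 77475287 each of the 4 lists was input-covered, with folds of 10.03 in COLO320DM, 6.86 in HCT116, 6.44 in COLO205 and 5.19 in HT29. The peaks of that region lay up to 505 nt apart, so they need not mark 1 site.

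The other 2 regions lay in the window from 44000001. From 44126251 to 44126529 the folds were 9.83 in HCT15, 8.18 in HT29, 4.81 in COLO320DM and 4.10 in COLO205. COLO205 had 28 reads there over 11.0 input fragments, and COLO320DM 4 reads with its background at the genome mean, 0.0616 fragments. From 44277881 to 44278366 the region was input-poor in HT29, COLO205, HCT15 and HCT116, with folds of 9.44, 6.46, 4.65 and 3.85. It joined the 4 lists as a chain, and the HCT15 and HCT116 peaks in it did not overlap each other. Over the 9 regions, taking the highest peak of each list, the highest fold was 1.73 to 2.66 times the lowest. The 2.66 was that of the region from 67992833, whose summits lay up to 348 nt apart.

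**Figure D5:**
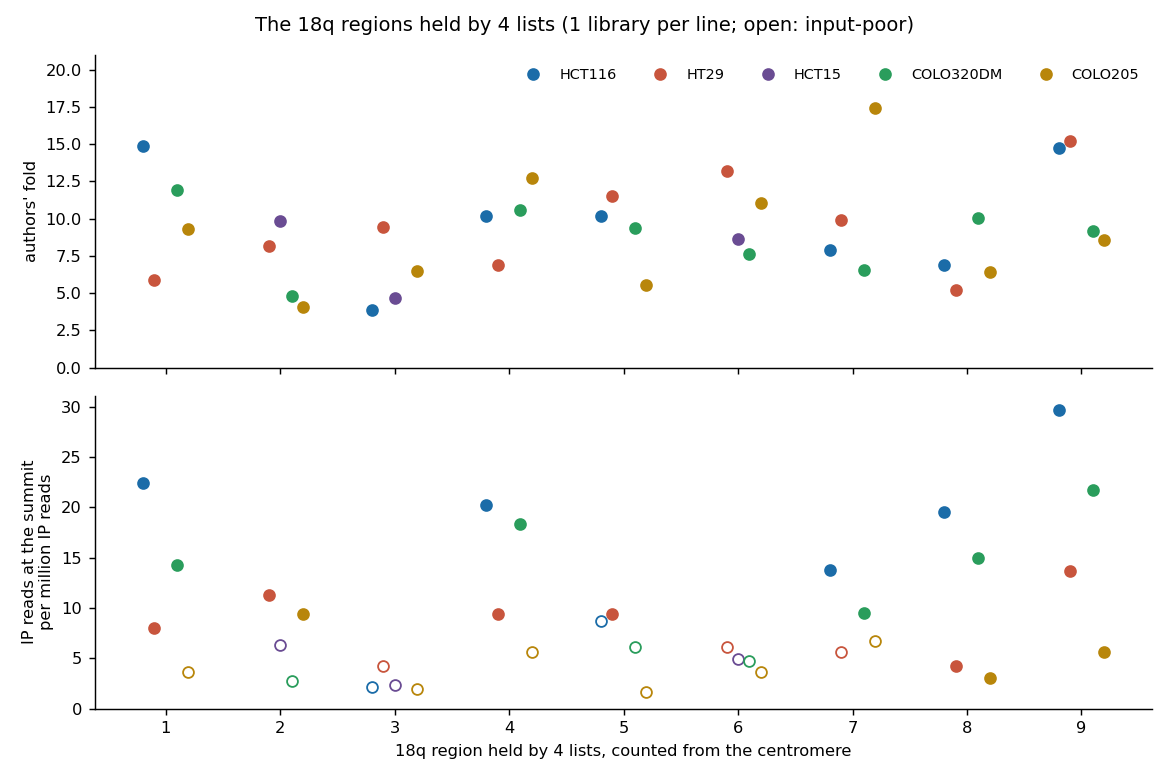
The 9 regions of 18q held by 4 lists, ordered from the centromere, with the authors' fold (top) and the IP reads at the summit per M IP reads (bottom), both axes from 0. Each point is 1 library (the peak with the highest fold where a list has several), and open points in the lower panel are input-poor. Region 7 reaches the highest fold, 17.4 in COLO205, and region 9 the most reads per M, 29.7 in HCT116.

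Some of the 3 strongest peaks of each list lay outside the regions in 4 lists. In COLO205 the peak from 45553898 to 45554004 was second by fold, 13.2, with 21 reads over 1.20 input fragments, and no other list had a peak there. In COLO320DM the peak from 73000162 to 73000702 was second by −log10 p, at 26.0, with 39 reads and a fold of 8.20, and HCT116 and COLO205 had a peak at that place. The third strongest peak of HCT116, from 55335364 to 55335535, had a fold of 13.3 from 13 reads over 0.0900 input fragments, and partners in COLO320DM and COLO205. The third of HT29, from 18979355 to 18979450, had a fold of 13.2 from 13 reads with its background at the genome mean. It lay 0.479 Mb inside the arm limit and had partners in HCT116 and COLO205.

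In HT29, COLO205 and COLO320DM the 18q peak with the most reads was not one of the 3 with the highest fold. In HCT15 it was the peak with the highest fold, and in HCT116 the second by fold. These peaks were looked up after their values were seen. HT29 and COLO205 had theirs at the same place, from 50319131 to 50319214 and from 50319135 to 50319220. COLO205 had 58 reads there over 26 input fragments and a fold of 3.84, and HT29 had 39 reads over 14 input fragments and a fold of 3.77. The place therefore combined the most IP reads with the most input on the arm in each of these lists, and its folds lay below the medians of their 18q peaks. HCT116 had a peak there too, from 50319147 to 50319249, with fewer reads, 15, over 1 input fragment and a higher fold, 9.90. The most reads in COLO320DM, 44, lay from 72999362 to 72999596 over 11 input fragments, with a fold of 5.55. It was 1 of 4 COLO320DM peaks between 72998124 and 73000702, which had 31 to 44 reads over 6 to 11 input fragments. HCT116 and COLO205 each had 2 peaks in that stretch, with 9 to 16 reads over at most 1.88 fragments, and HT29 and HCT15 had 0.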

How the data were processed

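m6A peak lists of 5 cell lines were analysed, 1 IP library each; the inputs entered through the lists. Per the submitters' processing notes, cutadapt, FastQC, BWA, MACS2 and hg19 were used, with no versions or parameters. The authors' deposited lists give per peak a fold (a ratio to local background), a −log10 p, a −log10 q and a score. Peaks were called per library.

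IP reads and background were recovered from fold and −log10 p under the caller's model, fold = (reads + 1) / (background + 1), with a Poisson p. A whole number of reads met each −log10 p within 0.001 in 100% of peaks; in HCT15 each read counted as 0.322. The control was taken to be the input, which no source used here states. Depths assume a genome of 2.7 Gb. Where 2 solutions fitted, the closer was taken, which touched 1 peak on 18q. The recovery was tested on simulated data.

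A chromosome's span was taken to end at its last peak in any list, assembly gaps included. Named peaks are the 3 highest by −log10 p and by fold of each list on 18q, the regions in 4 lists, and the 3 fullest windows of each list with those holding all lists. The members and lists were chosen with earlier results of these data known. The alternatives tried were thresholds, 905 strongest peaks, the arm without its end windows, other overlap rules, shifted windows, lists left out and contigs in the denominator. Computations used Python 3.11.15 with scipy 1.17.1, pandas 2.3.3 and numpy 2.4.6, and figures matplotlib 3.10.9.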

Additional observations from a re-analysis of the deposited data

How the results depend on the processing

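The share of 18q stayed inside its main interval in each line with peaks under a fold of 4 or under a −log10 q of 5 removed, without the end windows and with contigs included; with the 905 strongest peaks it moved to 1.33% in HT29 and 0.552% in COLO205. With a −log10 q of at least 5 the median fold was 7.25 in HT29 and 6.92 in COLO205, then 6.64 in HCT116 and 6.47 in COLO320DM, and the median reads 9.5, 9.5, 14 and 13.5, as fewer weak peaks remain. Input then covered 56.1% in HCT116, 63.6% in COLO320DM, with a median background of 21.3 times the mean, and 0 in HCT15; without the end windows HCT15 also had 0. The 905 strongest peaks gave median folds of 12.7 in COLO205 and 12.3 in HT29, then 11.7 in HCT116 and 9.20 in COLO320DM, from 5 to 12 peaks. Sharing with any other list fell to 47.2% in COLO205, 39.2% in HCT116, 37.97% in HT29 and 30.7% in COLO320DM with reciprocal overlap of 50%, and to 40.0%, 37.5%, 41.7% and 27.3% among the 905 strongest, where 20.6% of regions were in 2 or more lists and 0 in 4. Leaving out 1 list can only lower this sharing. It did so most for the closest partner: to 39.2% in HCT116 without COLO320DM, 28.4% in COLO320DM without HCT116, 37.97% in HT29 without COLO205 and 44.4% in COLO205 without HT29. None of these sharing values was recomputed for the whole lists, so the falls are not shown to be particular to 18q. The 9 regions in 4 lists became 2 without HCT116, 0 without HT29, 1 without COLO320DM, 0 without COLO205 and 6 without HCT15. No region was in all 5 lists, so leaving out a list had to remove each of the 9 that it was in. These counts only restate which lists held the regions. With a −log10 q of at least 5 the fullest window held 7 peaks in HT29, 5 in COLO320DM and 4 in COLO205, and the stretch from 28000001 held 9.09% of COLO320DM peaks. Of 145 values, 104 stayed within their main interval, or within 1.5 times a count, the 6 regions without HCT15 among them. A pseudocount of 0 gave whole reads for under 1% of peaks, so no values came from it. Other overlap rules were not run on merged regions. No paired analysis was possible because each line has 1 IP library. With 1 library per line and few reads per peak, a peak missing from a list is not shown to be unmethylated there.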
